A study of Mus musculus with 6 samples.

Results

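The neurotrophins and the proteins that receive them were followed here as 7 genes out of the 55421 in the deposited table of hippocampal gene counts. They are the ligand genes *Bdnf* and *Ntf3*, the Trk receptor genes *Ntrk2* and *Ntrk3*, the p75 receptor gene *Ngfr*, and *Sort1* and *Sorcs3*, which encode sorting receptors of the sortilin family. The genes were taken by symbol, each symbol matched 1 row, and all 7 passed the filter on low counts. The libraries came from male wild-type C57BL/6N mice of 8 to 10 weeks. In the SP group, 3 mice received substance P (SP, 10 µM, 100 µL) under the skin for 14 consecutive days, and in the vehicle group 3 mice received the same volume of saline. Each mouse gave 1 library of hippocampal mRNA, and the time between the last injection and tissue collection is not given in the sources used here.

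Neurotrophins are secreted growth factors that are made as larger precursors and cut to a mature form. Mature BDNF acts through TrkB, the tyrosine kinase encoded by *Ntrk2*, and mature NT-3, the product of *Ntf3*, acts mainly through TrkC, encoded by *Ntrk3*. The uncut precursors bind p75 together with sortilin. In the hippocampus, BDNF and TrkB are known for their part in long-term potentiation and memory, which were the subject of the study. *Bdnf* is transcribed from several start sites, and some of them respond to neuronal activity through calcium and the factor CREB.

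RefSeq (GRCm38.p6) windows of 250 bases before a start site were at hand for 5 of the 7 genes, with 12 windows in all, 7 of them for *Bdnf*. *Ntrk3* and *Sort1* had none. Because several known regulators of *Bdnf* are measured below, each window was searched on both strands for the full cyclic AMP response element (CRE) TGACGTCA, for its core TGACG and for the E-box CACGTG bound by USF factors. The full element contains the core on both strands. A single *Bdnf* window held the CRE core, 35 bases before the start at 109692436. The core occurred in 17.8% of 32851 windows of all genes. The E-box CACGTG was found in 1 window of *Ntf3*, 231 bases before the start at 126166744, and in 6.02% of all windows. Other forms of the E-box were not searched for, in the *Bdnf* windows or elsewhere. The full CRE was in 0 of the 12 windows and in 1.55% of all windows. These matches are letters in a window and say nothing about binding in these mice. The windows with a match are given 5′ to 3′, with the matched letters in capitals.
*Bdnf*, chr2:109692186-109692435, plus strand: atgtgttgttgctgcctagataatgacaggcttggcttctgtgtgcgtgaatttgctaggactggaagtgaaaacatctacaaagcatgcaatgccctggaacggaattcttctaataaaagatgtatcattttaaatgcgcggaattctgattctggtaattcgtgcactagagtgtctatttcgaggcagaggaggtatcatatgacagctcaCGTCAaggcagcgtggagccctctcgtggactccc
*Ntf3*, chr6:126166745-126166994, minus strand: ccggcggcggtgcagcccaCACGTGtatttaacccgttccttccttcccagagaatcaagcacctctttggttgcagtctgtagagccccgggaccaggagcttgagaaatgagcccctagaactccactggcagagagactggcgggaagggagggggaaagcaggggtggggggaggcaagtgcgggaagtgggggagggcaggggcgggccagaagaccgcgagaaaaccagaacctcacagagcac

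The question put to the data was whether 14 days of SP changed the expression of these 7 genes. None of them passed the thresholds of the study, FDR < 0.1 and |log2FC| > 0.3, in edgeR's quasi-likelihood test with the replicate number as a block. The FDRs ranged from 0.556 for *Bdnf* to 0.864 for *Ngfr*. Over all 17069 genes tested, 0.0293% passed. An unadjusted p under 0.05 was found for 0 of the 7 genes, against 10.1% of all tested genes. DESeq2 with the block, DESeq2 without it, limma-voom and edgeR without the block also called 0 of the 7, and called 0.211%, 0.79%, 0.0117% and 0.012% of all genes. With the block, DESeq2 gave *Ntf3* and *Ngfr* no FDR. The log2 fold changes lay between -0.14 for *Ngfr* and 0.17 for *Ntf3*, with 3 genes above 0 and 4 below it. The median of their absolute values was 0.11, where all tested genes had 0.090. The 95% interval of the log2 fold change stayed within 0.3 of 0 for 4 genes, *Bdnf*, *Ntrk2*, *Ntrk3* and *Sort1*, as it did for 46.4% of all tested genes. The libraries of both groups held separate ranges of expression for 1 of the 7 genes, *Ntrk2*, where 18.2% of all tested genes did so.

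**Figure D1:**
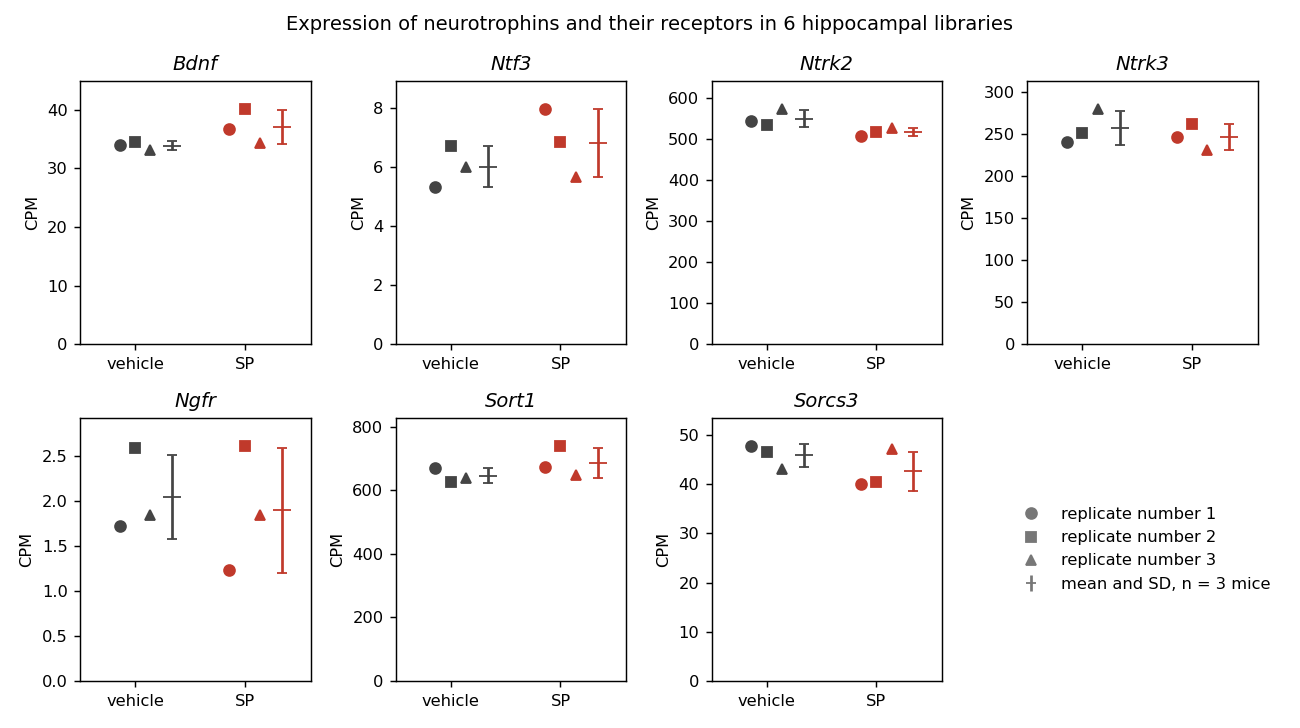
Expression of each gene in CPM (counts scaled to library size, vertical axis from 0) in the 3 vehicle libraries (grey) and the 3 SP libraries (red), with the replicate number as the marker shape and the mean ± SD (n = 3 mice) beside the points. The groups overlap for every gene but *Ntrk2*, which lay between 509 and 527 CPM with SP and between 534 and 574 CPM with vehicle.

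The ligand gene *Bdnf* (ENSMUSG00000048482) lies on chromosome 2 of GRCm38 from 109674700 to 109727007. It had 33.9, 34.6 and 33.1 CPM in vehicle 1, 2 and 3, where CPM are counts scaled to the normalized library size. With SP it had 36.6, 40.1 and 34.3 CPM. SP 1 and SP 2 were above every vehicle library, while SP 3 fell just under vehicle 2, so the groups overlapped. The log2 fold change was 0.13 (95% interval -0.025 to 0.28, FDR 0.556 from edgeR), which is 1.09-fold (0.983 to 1.21). Expression was higher in 3 of 3 replicate pairs. The count of *Bdnf* sums its start sites, and the antisense gene *Gm45346*, which shares 896 bases of exon with it, had 1 to 5 counts. *Ntf3* (ENSMUSG00000049107, chromosome 6, 126101412 to 126166910, minus strand) was read from 124 to 187 counts per library. Its expression was 5.33, 6.71 and 6.02 CPM with vehicle and 7.97, 6.85 and 5.66 CPM with SP. SP 1 was the highest library, SP 3 sat among the vehicle libraries, and the direction held in 2 of 3 pairs. The log2 fold change of 0.17 had a 95% interval from -0.19 to 0.53 (edgeR FDR 0.749), and without replicate 1 it was -0.029.

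*Ntrk2* (ENSMUSG00000055254, chromosome 13, 58806569 to 59133970), the gene of TrkB, had 544, 534 and 574 CPM in the vehicle libraries. The SP libraries had 509, 519 and 527 CPM. Every SP library was below every vehicle library, an arrangement with SP lower that 9.03% of all tested genes showed. The log2 fold change was -0.087 (95% interval -0.21 to 0.040, FDR 0.628 from edgeR), or 0.941-fold (0.862 to 1.03), and SP was lower in 3 of 3 pairs. *Ntrk3* (ENSMUSG00000059146, chromosome 7, 78175959 to 78738012, minus strand), the gene of TrkC, had 240, 252 and 280 CPM with vehicle and 246, 263 and 231 CPM with SP. The groups overlapped over most of their range. Its log2 fold change was -0.060 (95% interval -0.23 to 0.11, edgeR FDR 0.830), and it was 0.046 without replicate 3. Against the sign of the fold change, SP was higher in 2 of 3 pairs. Both Trk genes also give shortened receptors that lack the kinase, and GENCODE M21 lists 7 coding transcripts for *Ntrk2* and 6 for *Ntrk3*. The counts per gene do not separate these forms, so a shift between them could not be seen here.

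*Ngfr* (ENSMUSG00000000120, chromosome 11, 95568818 to 95587735, minus strand) encodes p75, which the adult hippocampus makes at a low level. It was read from 29 to 64 counts per library and had 1.72, 2.59 and 1.85 CPM with vehicle and 1.24, 2.61 and 1.84 CPM with SP. SP 1 was the lowest library of all and SP 2 the highest. The log2 fold change of -0.14 had the widest interval of the 7 genes, from -0.62 to 0.35 (edgeR FDR 0.864), which allows from 0.650-fold to 1.28-fold. Without replicate 1 it was 0.0051.

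*Sort1* (ENSMUSG00000068747, chromosome 3, 108284082 to 108361511) encodes sortilin, which steers precursor and mature BDNF within the cell and joins p75 at the surface. Its expression was 671, 628 and 640 CPM with vehicle and 673, 740 and 648 CPM with SP. SP 2 stood above the other 5 libraries, and SP 1 and SP 3 lay among or next to the vehicle values. The log2 fold change was 0.086 (95% interval -0.072 to 0.24, FDR 0.701 from edgeR), and it fell to 0.011 without replicate 2. *Sorcs3* (ENSMUSG00000063434, chromosome 19, 48206025 to 48805505) encodes a related receptor of the postsynaptic density. It had 47.8, 46.6 and 43.2 CPM with vehicle and 40.1, 40.6 and 47.1 CPM with SP. SP 1 and SP 2 were below every vehicle library, whereas SP 3 was above vehicle 2 and 3. The log2 fold change of -0.11 had a 95% interval from -0.31 to 0.089 (edgeR FDR 0.699). Without replicate 3 it was -0.23 (edgeR unadjusted p = 0.0217, FDR 0.369), in a fit where 10.2% of all tested genes had an unadjusted p under 0.05, and without replicate 1 it was -0.037.

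**Figure D2:**
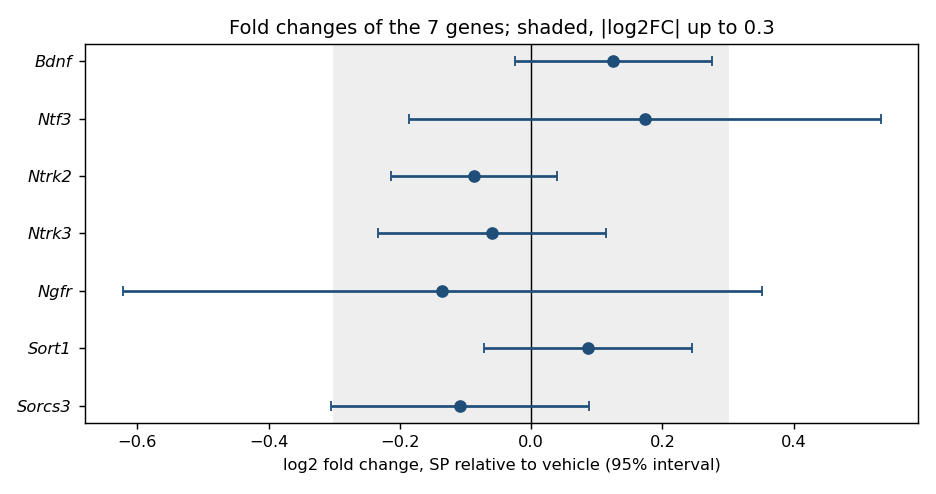
Log2 fold change of SP relative to vehicle (horizontal axis) for each of the 7 genes, with points for the edgeR estimate, bars for its 95% interval and shading for |log2FC| up to 0.3. Every interval includes 0, and those of *Bdnf*, *Ntrk2*, *Ntrk3* and *Sort1* stay inside the shading.

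Levels were also compared between the genes per kilobase of transcript. With the median length of the coding transcripts in GENCODE M21, *Ntrk2* had the highest level, 175 ± 7.44 CPM per kilobase (SD over 6 libraries). *Sort1* and *Ntrk3* followed at 97.8 ± 5.87 and 92.4 ± 6.36 CPM per kilobase, and their libraries overlapped. *Bdnf* had 9.07 ± 0.652 and *Sorcs3* 7.85 ± 0.608 CPM per kilobase, the lowest *Bdnf* library being just above the highest *Sorcs3* library (8.483 against 8.482). *Ntf3* was at 4.59 ± 0.685 and *Ngfr* at 0.573 ± 0.155 CPM per kilobase. With the longest coding transcript, which has 8744 bases for *Ntrk2* and 19703 for *Ntrk3*, *Sort1* was first at 97.5 CPM per kilobase. *Ntrk2* then had 61.1 and *Ntrk3* 12.8 CPM per kilobase. The libraries of *Bdnf* (7.77 to 9.39) and *Sorcs3* (7.12 to 8.48 CPM per kilobase) overlapped with this length. The order at the top thus depended on the length used, while *Ntf3* and *Ngfr* were the lowest under both lengths.

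Ratios within a library do not depend on its size, and 4 were set for comparison. The log2 ratio of *Ntf3* to *Bdnf* counts was -2.50 ± 0.156 with vehicle and -2.45 ± 0.218 with SP (SD, n = 3 each, exact permutation p = 0.8, two-sided). For the Trk receptors, the log2 ratio of *Ntrk3* to *Ntrk2* was -1.10 ± 0.0736 with vehicle and -1.07 ± 0.107 with SP (SD, n = 3 each, exact permutation p = 0.8). The log2 ratio of *Ngfr* to *Ntrk2*, the p75 receptor relative to TrkB, was -8.09 ± 0.347 with vehicle and -8.16 ± 0.528 with SP (SD, n = 3 each, exact permutation p = 1). *Sorcs3* to *Sort1* gave the largest difference of the 4, with a log2 ratio of -3.82 ± 0.0699 with vehicle and -4.01 ± 0.209 with SP (SD, n = 3 each, exact permutation p = 0.3). This ratio was -4.07 in SP 1, -4.19 in SP 2 and -3.78 in SP 3, so that SP 3 lay within the vehicle range of -3.89 to -3.75. Adjusted over the 4 ratios by the Benjamini-Hochberg method, each exact permutation p was 1. The smallest p that 3 libraries against 3 can give in this test is 0.1.

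*Ntf5*, which encodes the other TrkB ligand NT-4, had 4 to 13 counts per library. The sortilin relatives *Sorcs1*, *Sorcs2* and *Sorl1* had log2 fold changes of -0.18, -0.051 and 0.12, with edgeR FDRs from 0.688 to 0.805. *Sorl1* was highest in SP 2 with 449 CPM, as *Sort1* was.

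Other genes of neurotrophin signaling were described as 9 lists with 109 genes in all, of which 106 were tested and 0 passed FDR < 0.1 and |log2FC| > 0.3 with edgeR. DESeq2 with and without the block and limma-voom called 0 of them as well. An unadjusted p under 0.05 was found for 13 of the 106 genes (12.3%, against 10.1% of all tested genes), 8 higher and 5 lower with SP where all tested genes had 4.48% and 5.59%, and their FDRs ran from 0.338 to 0.492. The median log2 fold change of the 106 genes was 0.016, where all tested genes had 0.0015. In the text that follows, genes are named if their unadjusted p was under 0.05 or if they had the largest change of a list in their direction.

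Among 15 tested genes that process or release proneurotrophins, 3 had an unadjusted p under 0.05 (20.0%, against 10.1% of all tested genes), and the median log2 fold change was 0.030. The convertase gene *Pcsk5* had 20.9, 18.4 and 19.0 CPM with vehicle and 16.7, 14.7 and 15.8 CPM with SP, with no overlap. The edgeR FDR of 0.338 was the lowest of the 106 genes, at a log2 fold change of -0.31 (95% interval -0.48 to -0.13). *Pcsk1*, a convertase of dense-core vesicles, had a log2 fold change of -0.28 (FDR 0.424), and the libraries overlapped at SP 3 with 28.9 CPM. *Plat* encodes the tissue plasminogen activator, which turns plasminogen into plasmin, a protease that cuts proBDNF. *Plat* had 39.8, 38.7 and 38.6 CPM with vehicle and 47.7, 43.0 and 41.6 CPM with SP, a log2 fold change of 0.17 (FDR 0.436). The largest positive value of the list was 0.31 for *Mmp9*, a protease gene read from 30 to 48 counts.

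For the 19 Trk adaptors the median log2 fold change was 0.015, and for the 20 genes of the kinase cascades it was 0.047. *Shc3*, an adaptor of neurons, had 25.6 ± 1.24 CPM with vehicle and 21.4 ± 0.953 CPM with SP (SD, n = 3 each), with no overlap. The 95% interval of its log2 fold change ran from -0.42 to -0.096 around -0.26 (edgeR FDR 0.361). *Gab1*, a docking protein of the PI3-kinase branch, had a log2 fold change of 0.27 (FDR 0.432), with SP 2 highest at 42.8 CPM. In the cascades, *Mapk7*, which encodes the kinase ERK5, had 27.8, 24.7 and 25.1 CPM with vehicle and 33.8, 33.2 and 27.4 CPM with SP. SP 3 lay within the vehicle range, and the edgeR FDR was 0.380 at a log2 fold change of 0.28 (95% interval 0.098 to 0.46). *Rps6ka2* had a log2 fold change of -0.14 (FDR 0.492). The 10 genes of Trk trafficking and turnover held 0 with an unadjusted p under 0.05 and ran from -0.12 for *Lrig1* to 0.11 for *Dynll1*.

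The 16 genes of p75 signaling and cleavage had a median log2 fold change of 0.0058. *Rtn4r*, the Nogo receptor that forms a complex with p75, had 0.16 (edgeR FDR 0.481), and *Nradd*, a gene of low expression with 22 to 38 counts, had -0.34 (FDR 0.678). Of 11 regulators of *Bdnf* transcription, 3 had an unadjusted p under 0.05 (27.3%, against 10.1% of all tested genes). *Crtc1*, a coactivator of CREB, had 232, 237 and 243 CPM with vehicle and 268, 301 and 245 CPM with SP, a log2 fold change of 0.19 (FDR 0.440). *Usf1*, an E-box factor, had 0.16 (FDR 0.476), and *Carf*, a calcium-responsive factor of *Bdnf*, had -0.24 (FDR 0.436). *Creb1* itself had -0.10 (FDR 0.631). The largest change of this list was -0.33 for *Npas4*, an activity-induced factor, with 16.5, 17.6 and 16.1 CPM under vehicle and 7.84, 12.7 and 21.9 CPM under SP. *Npas4* was thus below the vehicle libraries in SP 1 and SP 2 and above them in SP 3.

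The 10 genes that respond to TrkB had a median log2 fold change of -0.031. *Nptx2*, a secreted pentraxin of excitatory synapses, had 17.5, 17.7 and 17.2 CPM with vehicle and 20.1, 22.2 and 19.0 CPM with SP. The edgeR FDR was 0.429 at a log2 fold change of 0.22 (95% interval 0.043 to 0.41). *Homer1* had 0.12 (FDR 0.480). *Fos* had -0.30 (FDR 0.697) and showed the same split as *Npas4*, with 7.88 and 9.21 CPM in SP 1 and SP 2 and 17.7 CPM in SP 3, against 12.1 to 16.5 CPM with vehicle. *Arc* and *Vgf* had log2 fold changes of -0.033 and -0.029. With SP 3 left out and no block, *Fos*, *Npas4*, *Pcsk1* and *Mapk7* passed the thresholds, with log2 fold changes of -0.69, -0.71, -0.39 and 0.37 and edgeR FDRs of 0.0836, 0.0996, 0.0757 and 0.0688. In that fit 357 of 16952 genes (2.11%) passed.

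**Figure D3:**
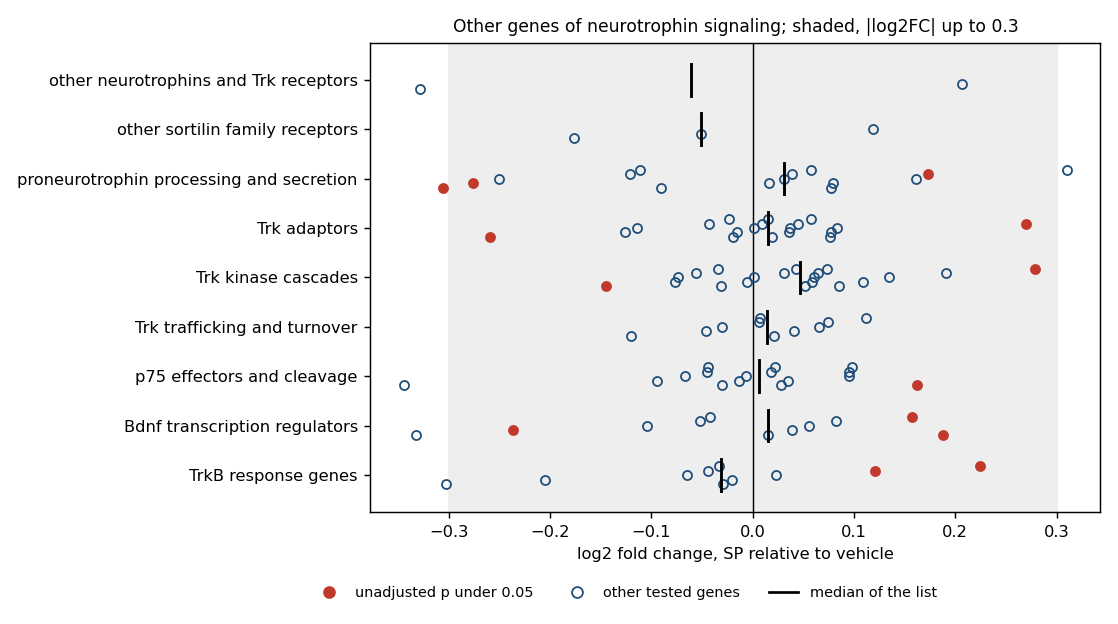
Log2 fold change of SP relative to vehicle (horizontal axis) for the 106 tested genes of 9 lists (rows), with filled red points for an unadjusted p under 0.05, open points for the other genes, a black bar for the median of each list and shading for |log2FC| up to 0.3. Most genes lie within the shading, and none passed FDR < 0.1.

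The libraries differed in their cell type markers, and some of these differences went with the groups. In bulk tissue, fewer cells of a type and less RNA per cell cannot be told apart. The hippocampal identity of the tissue was visible in each library, since 6 dentate granule cell markers summed to between 229.5 and 386 CPM and 5 CA1 markers to between 517 and 592 CPM. All 6 dentate markers had a positive log2 fold change, and their sums were 246, 259 and 258 CPM with vehicle and 328, 386 and 229.5 CPM with SP. From high to low, *Bdnf* ran SP 2, SP 1 and SP 3. The sums of the dentate, CA2, CA3, oligodendrocyte, oligodendrocyte precursor, microglia, and endothelial and mural markers had the same order. In SP 3 the dentate sum was below every vehicle library, while *Bdnf* lay within the vehicle range. The 5 CA3 markers summed to 248 to 269 CPM with vehicle and 272 to 316 CPM with SP. Of 10 markers of neocortex and subiculum, 9 had a negative log2 fold change, and their sums were 283 to 293 CPM with vehicle and 218 to 259 CPM with SP. The 7 oligodendrocyte markers were all above 0, with sums of 4167 to 4684 CPM with vehicle and 4786 to 6862 CPM with SP. Among them, *Mbp* and *Mag* had log2 fold changes of 0.38 and 0.37, with every SP library above every vehicle library. The study reported both genes as downregulated with SP, which is the opposite direction. The cause of this disagreement was not tested. The 6 GABAergic interneuron markers, 5 of them below 0, summed to 511 CPM in SP 2 and to 638 to 715 CPM in the other 5 libraries. An unadjusted p under 0.05 was found for 1 of 6 dentate, 4 of 5 CA3, 3 of 5 CA1, 5 of 10 neocortex and subiculum, 6 of 7 oligodendrocyte and 1 of 6 GABAergic markers, against 10.1% of all tested genes, and 0 of them passed FDR < 0.1 and |log2FC| > 0.3 with edgeR. The part of these shifts in the values of *Bdnf*, *Ntrk2*, *Sort1* and *Sorcs3* was not tested.

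Astrocytes carry the shortened TrkB receptor, and the sums of their 5 markers overlapped, at 1243 to 1310 CPM with vehicle and 1197 to 1325 CPM with SP. The part of astrocytes in the values of *Ntrk2* was not tested. The cholinergic neurons of the basal forebrain, which carry p75 on the fibers they send to the hippocampus, had low markers, with *Chat* at 0 to 6 counts, *Slc18a3* at 0 to 7 counts and *Slc5a7*, the choline transporter gene, at 15 to 31 counts in every library. Their sums overlapped, at 1.16 to 1.495 CPM with vehicle and 0.639 to 1.44 CPM with SP, and their part in the values of *Ngfr* was not tested. Leptomeningeal fibroblast markers, 6 of 6 below 0, summed to 316 to 389 CPM with vehicle and 198 to 300.0 CPM with SP. Of these 6, *Igf2* had the highest expression, at 189 to 261 CPM with vehicle and 93.4 to 188 CPM with SP. It was the only 1 of the 6 with an unadjusted p under 0.05 in edgeR. Choroid plexus markers, 4 of 4 below 0, summed to 3727 to 4635 CPM with vehicle and 167, 2744 and 3885 CPM with SP 1, 2 and 3. The 5 pineal markers summed to 47.0 CPM in SP 2 and to at most 2.69 CPM in the other libraries, with *Gngt1* at 0 counts outside SP 2. Without SP 2 and with no block, the log2 fold changes were 0.067 for *Bdnf*, 0.18 for *Ntf3*, -0.088 for *Ntrk2* and -0.11 for *Ntrk3*. In that fit *Ngfr* had -0.42, *Sort1* 0.031 and *Sorcs3* -0.072. Without SP 1 and with no block, they were 0.14 for *Bdnf*, 0.055 for *Ntf3*, -0.075 for *Ntrk2* and -0.060 for *Ntrk3*. There *Ngfr* had 0.12, *Sort1* 0.10 and *Sorcs3* -0.065. The part of choroid plexus and pineal tissue in these values was not tested.

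**Figure D4:**
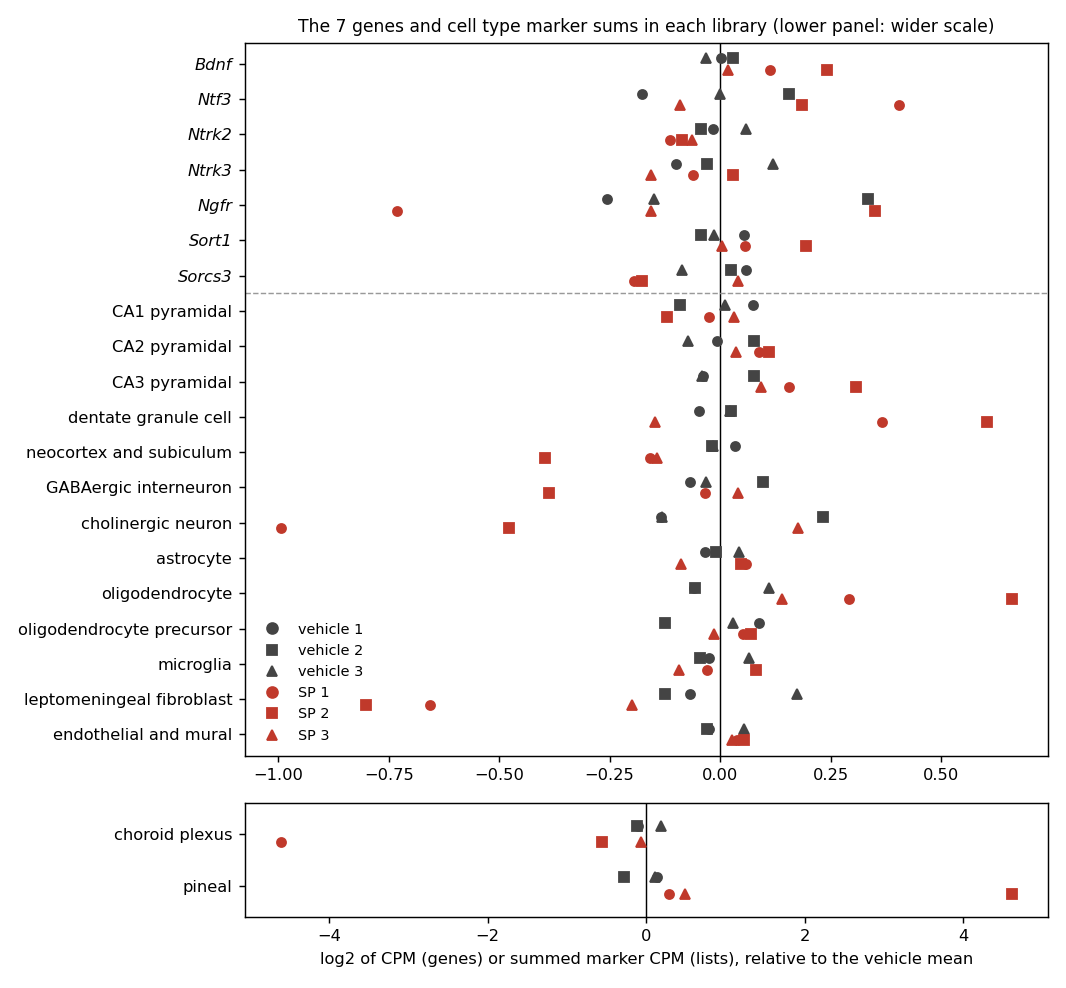
Log2 of the CPM of each gene, and of the summed CPM of each cell type marker list, relative to the vehicle mean (horizontal axis; the lower panel has a wider scale) for the 3 vehicle libraries (grey) and the 3 SP libraries (red), with marker shapes for the replicate number. SP 2 stands out in the dentate, neocortex, GABAergic, oligodendrocyte and pineal lists, and SP 1 in the choroid plexus list with 167 CPM.

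For each of the 7 genes, the 2 genes with the most similar pattern were looked up among 14917 tested genes of at least 1 CPM on average, by Pearson's r of log2 CPM over the same 6 libraries. These are descriptions of 6 points that share their library composition. *Bdnf* was closest to *Eif4b* (r = 0.995) and *Cope* (r = 0.995), *Ntf3* to *Ncf1* (r = 0.987) and *Gm15500* (r = 0.982), and *Ntrk2* to *Cyp4v3* (r = 0.993) and *Mapre1* (r = 0.992). *Ntrk3* was closest to *Tnfrsf22* (r = 0.994) and *Scn3a* (r = 0.989), and *Ngfr* to *Polr3a* (r = 0.988) and *Igsf1* (r = 0.987). The sorting receptor gene *Sort1* was closest to *Snx30* (r = 0.998) and *9230112E08Rik* (r = 0.997), and *Sorcs3* to *Gm43857* (r = 0.998) and *Gm15631* (r = 0.996). Among the 7 genes themselves, the highest r was 0.881 between *Bdnf* and *Sort1*, and the lowest was -0.796 between *Ntf3* and *Sorcs3*.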

How the data were processed

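Hippocampal mRNA libraries of 3 SP and 3 vehicle mice were compared. Per the submitters' processing notes, Trim Galore, STAR and Salmon were used with GRCm38. The authors deposited Salmon's estimated counts per gene, not scaled for library size or length. Versions and the annotation release are not given in the sources used here. The libraries held 22349941 to 27605937 counts, so that a count of 0 allows up to 0.109 to 0.134 CPM (3 counts, counting error only). The values of the 7 genes departed from whole numbers by at most 0.001 counts, and all counts were rounded.

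Tests were run in R 4.3.3 with edgeR 4.0.16 (filterByExpr with a minimum count of 10 and a minimum total of 15, TMM, quasi-likelihood test, Benjamini-Hochberg over all 17069 tested genes). The replicate number, which the labels call a batch, was a block, since the study adjusted for replicates. Across genes, deviations from the group means correlated at 0.014, -0.0656 and 0.0734 within the pairs of numbers 1, 2 and 3. These values show no pairing shared over all genes. A batch effect on some of the genes was not tested. CPM, log2 fold changes, standard errors and 95% intervals come from this fit. DESeq2 1.42.0 and limma-voom (limma 3.58.1) were alternatives, as were other filters, other normalizations, no block and leaving out libraries. The fits were tested on simulated counts with 200 changed genes, whose changes were all larger than those of the 7 genes. Changes as small as theirs were not simulated. Positions and lengths came from GENCODE M21 on GRCm38. The named genes were the 7 genes, list genes with an unadjusted p under 0.05 or the largest change of a list in either direction, and the 2 genes most like each of the 7. *Creb1*, *Arc*, *Vgf* and *Sorcs2* were named outside this rule after their values were seen. Members and lists were chosen with earlier results of these data known. Some genes of the lists are not reported here.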

Additional observations from a re-analysis of the deposited data

How the results depend on the processing

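The number of the 7 genes past FDR < 0.1 and |log2FC| > 0.3 was 0 under all 19 alternatives, and each gene kept its direction under the 8 other fits with all 6 libraries, including the fit without the replicate block, which changed no call. In that fit the log2 fold changes of *Bdnf*, *Ntrk2* and *Sorcs3* were 0.13, -0.088 and -0.11. Leaving out libraries, the values ranged from 0.067 to 0.17 for *Bdnf*, from -0.029 to 0.30 for *Ntf3*, from -0.11 to -0.057 for *Ntrk2*, from -0.12 to 0.046 for *Ntrk3*, from -0.42 to 0.12 for *Ngfr*, from 0.011 to 0.13 for *Sort1* and from -0.23 to -0.037 for *Sorcs3*. *Ntf3*, *Ntrk3* and *Ngfr* changed direction, *Ntrk3* also at 0.0039 without vehicle 3, and *Ngfr* also at 0.0051 without replicate 1 and 0.088 without vehicle 2. Among pathway genes, 0 to 4 passed when a library was left out. The 4 were *Mapk7* (log2 fold change 0.37), *Fos* (-0.69), *Pcsk1* (-0.39) and *Npas4* (-0.71), without SP 3 and with no block, where 2.11% of all tested genes passed, and the cause was not tested. In the same fit unadjusted p-values under 0.05 came up for 2 of the 7 genes, *Bdnf* (0.0263, FDR 0.252) and *Sorcs3* (0.0180, FDR 0.217), and for 15.2% of all tested genes. Without replicate 3 and with the block, *Sorcs3* alone had one (0.0217, FDR 0.369), against 10.2%. The difference of the log2 ratios between SP and vehicle ranged from -0.076 to 0.12 for *Ntf3* to *Bdnf*, from -0.018 to 0.087 for *Ntrk3* to *Ntrk2*, from -0.33 to 0.19 for *Ngfr* to *Ntrk2* and from -0.31 to -0.11 for *Sorcs3* to *Sort1*. With the numbers as a replicate block, the exact sign-flip permutation p of *Sorcs3* to *Sort1* was 0.5, where the smallest possible is 0.25. Depth limits *Ngfr* most, with 29 to 64 counts per library.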
